A study of Arabidopsis thaliana with 33 samples.

Results

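The open chromatin of salt-treated and of air-dried Arabidopsis thaliana seedlings was compared directly, list against list, with DNase-seq. Both groups were 10 day old seedlings of the accession Columbia-0 (Col-0), raised on plates of medium with sucrose. One group was exposed to 250 mM sodium chloride for 6 h, and the other was air-dried for 1 h and is called drought below. Other lists of the series, used below to look specific sites up, came from untreated control seedlings (3 DNase-seq libraries), from 6 h of heat at 38 °C (3), from 24 h of cold at 4 °C (2), and from FAIRE-seq of salt and of drought (3 each), in seedlings of the same accession and age. The salt and the drought group each comprised 3 DNase-seq libraries, so the comparison rests on 6 of the 33 samples of the series. Salt and drought differ in length of treatment as well as in kind, and these cannot be told apart. For each group the authors deposited 1 pooled peak list, with 55784 peaks for salt and 45737 for drought on chromosomes 1 to 5 of the build TAIR10. All of these peaks are the members of the comparison, and no coordinates occurred more than once within a list. Since the libraries of a group were merged into a single list, no spread between replicates can be given and nothing was tested. The 95% Wilson intervals below cover counting error only, and read depth per library is unknown. Whole seedlings were used, so a site open in fewer cells and a site less open in each cell cannot be told apart.

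DNase I cuts DNA where nucleosomes are absent or loosened, which in plants is typically near the ends of active genes and at the binding sites of transcription factors. Salt brings both an osmotic and an ionic load: sodium is pumped out or into the vacuole by exchangers, while water loss from either stress raises the hormone abscisic acid. Abscisic acid binds PYR/PYL receptors, which then inhibit PP2C phosphatases and so free SnRK2 kinases to activate ABF transcription factors and the protective genes these control. A second branch runs through DREB factors without the hormone.

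Most open sites were common to both stresses, and the difference was uneven. A peak that shared no base with the other list is called specific to its stress. It fell below the peak caller's threshold in the other list, which does not show that the site was closed there. Of the salt list, 16764 peaks were salt-specific, 30.1% of the list (29.7 to 30.4). Of the drought list, 3556 peaks were drought-specific, 7.77% (7.53 to 8.02). Salt peaks covered 18.3 Mb and drought peaks 12.7 Mb, of which specific peaks made up 3.28 Mb and 0.548 Mb. The share of specific peaks was even across chromosomes, from 28.8% to 30.8% for salt and from 7.33% to 8.16% for drought.

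The sites found in both lists were nearly the same sites base by base. Among 35721 peaks that matched exactly 1 peak of the other list, the summits, the points of highest signal, lay a median of 17 bp apart, and 83.0% lay within 50 bp. The −log10 p of the paired peaks had a Spearman rho of 0.64 and a Pearson r of 0.65 over these sites, which share their sequence and position. Their median width was 294 bp in the salt list and 232 bp in the drought list. A salt peak spanned 2 or more drought peaks in 2927 cases, and a drought peak spanned 2 or more salt peaks in 193 cases. Few peaks lay at the edge of the rule: 3 salt-specific peaks (median fold enrichment 2.05) came within 10 bp of a drought peak, and 2 shared salt peaks (2.06) were covered for 10 bp or less. For drought the numbers were 3 (3.32) and 7 (2.62).

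Salt-specific peaks came from the weak end of their list. Within the salt list they had a median width of 165 bp and a median fold enrichment of 2.36, against 311 bp and 3.54 for the shared peaks. Fold enrichment is the authors' own value over the local background and describes a peak within its list only. Of the weakest 10% of salt peaks, 80.2% were salt-specific, and of the strongest 10% 0 of 5579 were. Drought-specific peaks were spread more widely over the strengths of theirs. They were 14.6% of the weakest 10% and 1.31% of the second-strongest 10%, and 9 peaks of the strongest 10% were among them. Their median width was 143 bp, against 230 bp for shared drought peaks, and their median fold enrichment was 3.46 against 4.53.

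**Figure D1:**
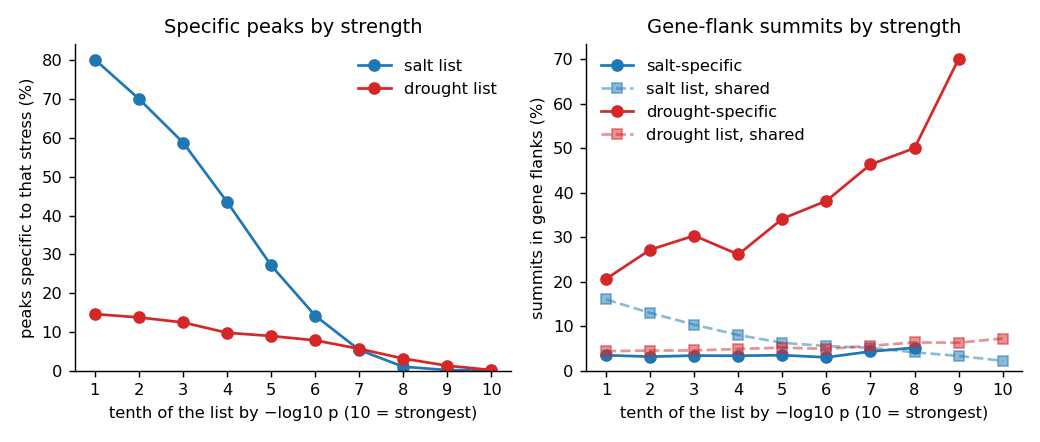
Share of stress-specific peaks (left, %) and share of summits in the 1000 bp outside genes (right, %) in 10 equal classes of the salt and drought DNase-seq lists, ordered by −log10 p from weakest (1) to strongest (10). Specific peaks are a larger share among weak than strong peaks, and drought-specific summits lie in gene flanks more often than salt-specific or shared ones in every class shown; points with under 20 specific peaks are left out on the right.

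The specific peaks of the stresses lay in different parts of genes. Of drought-specific summits, 31.4% (29.9 to 32.9) lay in the 1000 bp outside a protein-coding gene, against 5.45% (5.24 to 5.67) of the shared drought summits. Of salt-specific summits, 3.38% (3.12 to 3.67) lay there, against 5.68% (5.46 to 5.92) of shared salt summits. Drought-specific summits lay within protein-coding genes in 53.5% of cases and salt-specific ones in 71.1%, where shared summits did in 75.7% (drought) and 75.9% (salt). A specific peak cannot lie where the other list has a peak, so these shares also carry the position of the other list.

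Strength did not remove the contrast between drought-specific and salt-specific summits. In the stronger 50% of each list, 45.4% (42.0 to 48.8) of 831 drought-specific summits and 3.45% (2.54 to 4.66) of 1161 salt-specific summits lay in gene flanks. In the weaker 50% the shares were 27.1% (25.5 to 28.8) and 3.38% (3.11 to 3.67). Of shared drought and salt summits, 6.11% and 4.03% lay there in the stronger 50%, and 4.73% and 9.28% in the weaker 50%. The salt-specific share was thus near the shared one among stronger salt peaks and below it among weaker ones. Matching summits within 150 bp in place of shared bases lowered the drought-specific share to 14.5%. Peaks over tRNA genes, described below, made up 146 of the 1116 drought-specific peaks in flanks, and without them the share was 28.7%.

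Drought-specific summits gathered around gene ends and salt-specific summits in gene interiors. Within 200 bp of a gene end, inside or outside, lay 39.7% (38.1 to 41.3) of drought-specific summits, 4.87% (4.55 to 5.20) of salt-specific summits, and 11.8% and 13.1% of the shared summits of the salt and drought lists. Drought-specific summits were densest 100 to 200 bp inside a gene, with 16.2% of the set in that window, and 7.56% of them lay in the 100 bp just outside. Shared summits were densest 200 to 400 bp inside, and 0.76% of the shared summits of either list lay in the 100 bp just outside. Of the salt-specific summits inside genes, 41.5% (40.7 to 42.4) lay 1000 bp or more from either end, against 16.9% (16.5 to 17.3) of shared salt summits and 6.73% (5.69 to 7.95) of drought-specific ones. The genes holding salt-specific summits had a median length of 3141 bp, those holding shared salt summits 2564 bp, and all protein-coding genes 2078 bp. The gene table gives no strand, so transcription starts and ends are pooled here.

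**Figure D2:**
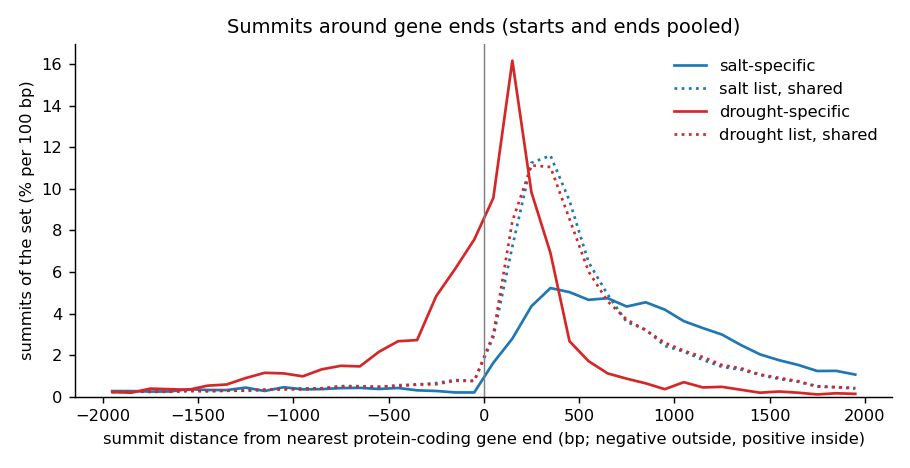
Percent of each set of DNase-seq summits per 100 bp, by distance in bp from the nearest end of a protein-coding gene (negative outside, positive inside), for salt-specific, drought-specific and shared peaks. The drought-specific curve peaks 100 to 200 bp inside the end and extends outside it, the shared curves peak at 200 to 400 bp, and the salt-specific curve is low and broad over the gene interior.

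The largest contrast by kind of gene was at transfer RNA genes, the short templates that RNA polymerase III transcribes from promoters inside the gene. Of 625 tRNA genes, 322 were covered by a drought peak and 129 by a salt peak. Both lists covered 123, the drought list alone covered 199 (31.8%, 28.3 to 35.6) and the salt list alone 6 (0.96%, 0.44 to 2.08). Over all 37899 genes of every kind, the drought list alone covered 2.60% and the salt list alone 9.01%. Of 204 drought summits inside a tRNA gene, 125 (61.3%, 54.4 to 67.7) were drought-specific.

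The tRNA genes covered by a drought peak and not by a salt peak came from every amino acid class. They included 23 of 40 leucine, 20 of 41 glycine, 18 of 33 alanine, 14 of 24 glutamate and 14 of 30 lysine tRNA genes. Shares were lower in other classes, with 7 of 75 tyrosine, 14 of 64 serine and 16 of 66 proline tRNA genes. The 6 genes with a salt peak only were proline tRNA genes. The peaks over the 199 genes had fold enrichments from 1.45 to 12.6, with a median of 4.38. The strongest, over the methionine tRNA gene AT5G41675, lay on chromosome 5 at 16666727 to 16667536 and outranked 98.3% of the drought list, but shared bases with a salt peak beside the tRNA gene. At 180 of the 199 genes the strongest peak over the gene was itself drought-specific. Many tRNA genes have near-identical copies, and the sources used here do not say how reads that map to several places were handled.

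Of the 7 lists examined, the salt DNase-seq list covered the fewest tRNA genes. The control, heat and cold DNase-seq lists covered 284, 223 and 180 tRNA genes. They covered 134, 97 and 79 of the 199 genes with a drought and no salt peak, so most of these genes were listed in unstressed seedlings too. In FAIRE-seq, which recovers protein-free DNA after formaldehyde fixation, the salt list covered 336 tRNA genes and the drought list 281, the opposite order. Of the 199 genes, 155 were covered in the salt FAIRE-seq list, 124 of them also in the drought FAIRE-seq list, and 3 in the drought FAIRE-seq list alone.

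**Figure D3:**
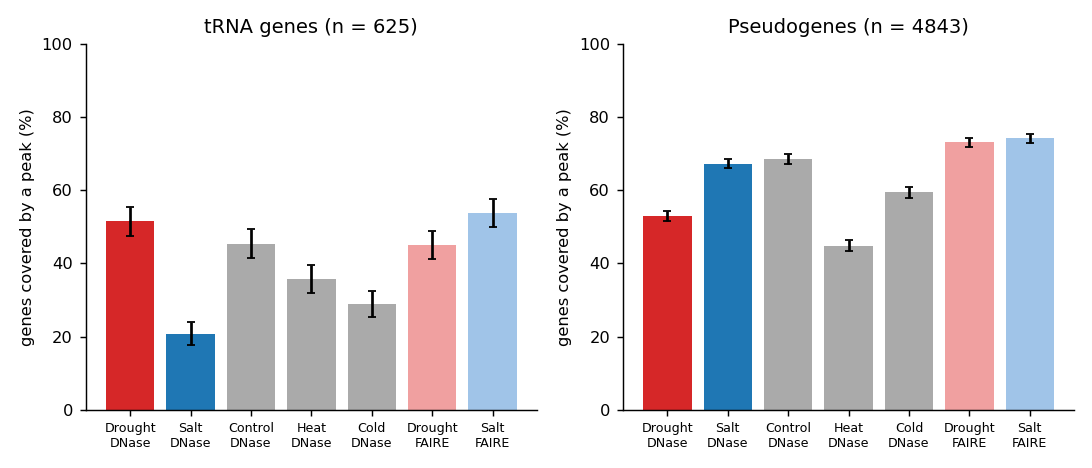
Percent of tRNA genes (left, n = 625) and of pseudogenes (right, n = 4843) covered by at least 1 base of a peak in each list, with 95% Wilson intervals as error bars. The salt DNase bar is the lowest of all for tRNA genes, with 129 genes against 322 for drought, while for pseudogenes the salt DNase bar lies above the drought bar.

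Pseudogenes, a class that in Arabidopsis holds many transposon-derived loci, leaned the other way. Of 4843 pseudogenes, 3259 were covered by a salt peak and 2562 by a drought peak, with 722 (14.9%, 13.9 to 15.9) covered by salt alone and 25 (0.52%, 0.35 to 0.76) by drought alone. The 722 fell to 54 when a salt peak had to cover at least 50% of the pseudogene. Of salt summits in pseudogenes, 38.3% (37.2 to 39.4) were salt-specific, and of drought summits there 2.42% (2.05 to 2.86) were drought-specific. Among the stronger 50% of salt peaks, 9.21% (8.22 to 10.3) of summits in pseudogenes and 3.24% (3.02 to 3.48) of summits in protein-coding genes were salt-specific, while among the weaker 50% the shares were 56.7% and 58.6%. In the 15 of 121 bins of 1 Mb where over 50% of the annotated genes were pseudogenes, 37.7% (36.6 to 38.7) of salt peaks were salt-specific, against 28.8% elsewhere. In these bins 4.34% (3.85 to 4.90) of drought peaks were drought-specific, against 8.27% elsewhere.

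Genes were then examined at their ends, from 1000 bp outside to 200 bp inside. Of 27444 protein-coding genes, 4115 had a salt-specific peak there (15.0%) and 3384 a drought-specific peak (12.3%), and 363 had both. At the level of whole genes the lists were balanced: 14580 genes had a peak at an end in both lists, 2020 (7.36%) in the salt list alone and 2043 (7.44%) in the drought list alone. A peak between 2 genes counts for both. The order of the counts of genes with a specific peak turned with lists of equal length (2192 for salt, 4634 for drought), with summits matched within 150 bp (4929 and 5205) and with a window of 500 bp outside to 100 bp inside (1355 and 2007).

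The strongest drought-specific peaks lay at or near gene ends. The first outranked 95.4% of the drought list and lay within BT4 (AT5G67480), which encodes a BTB and TAZ domain protein. It lay at 26932989 to 26933265 of chromosome 5 (fold enrichment 8.81), with its summit 215 bp inside the gene, just beyond the 200 bp limit used above. The second lay on chromosome 5 at 19563764 to 19563954 (fold enrichment 10.4), with its summit 31 bp outside BBX8 (AT5G48250), a B-box zinc finger gene. ERD15 (AT2G41430), an early dehydration gene that dampens abscisic acid responses, held one on chromosome 2 at 17269052 to 17269269 (10.1), with its summit 17 bp inside the gene. The AT1G27290 peak, at 9481239 to 9481572 of chromosome 1 (10.6), had its summit 22 bp inside the gene. Others of the first 10 lay between neighbouring genes. They included a peak 245 bp outside HSP23.6-MITO (AT4G25200), a mitochondrial small heat shock protein gene. A further peak lay 155 bp from WAKL6 (AT1G16110) and 242 bp from WAKL7 (AT1G16090), which are wall-associated kinase-like genes. It lay over the lysine tRNA gene AT1G16100 between them. Another lay 277 bp from AT1G04810 and 341 bp from the tubulin gene TUA4 (AT1G04820). Where a single neighbour is named for a peak between genes, it is the nearer one. The remaining ones lay 302 bp from ARLA1D (AT5G67560), a small GTPase gene, 205 bp from AT3G05670, and 68 bp from RANGAP1 (AT3G63130) and 128 bp from the cyclin gene CYCP1;1 (AT3G63120). The control DNase-seq list held all 10 of these sites.

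Many of the strongest salt-specific peaks lay away from protein-coding genes. Of the strongest 100, 51 had their summits in such a gene, 3 in a flank and 46 elsewhere, 25 of the 46 in pseudogenes, while of the strongest 100 drought-specific peaks 24 lay in a gene, 68 in a flank and 8 elsewhere. The 10 highest-ranked salt-specific peaks within or near protein-coding genes had their summits inside the gene. The first of these lay in AT3G55670 (chromosome 3, 20658035 to 20658881; fold enrichment 5.21) and outranked 89.4% of the salt list. ERD2 (AT1G56410), an HSP70 gene named for its early response to dehydration, held one on chromosome 1 at 21118369 to 21119189 (fold enrichment 4.52), 708 bp from the nearest gene end. The peak in MDN1 (AT1G67120), which encodes the ribosome assembly factor midasin, lay 12284 bp from an end, on chromosome 1 at 25083062 to 25083572 (4.48). The others lay in ABCC13 (AT2G07680), an ABC transporter gene, ATK4 (AT5G27000), a kinesin gene, NTT (AT3G57670), a transcription factor gene, and in AT5G39160, AT3G27330, AT4G14390 and AT4G16920. Long genes gathered several such sites. MDN1, with 26211 bp, held 11 salt-specific and 1 shared salt summit, and AT2G17930, with 18317 bp, held 11 and 7. ILA (AT1G64790), with 18607 bp, and SWEETIE (AT1G67140), with 16684 bp, held 8 salt-specific summits each. The shorter genes PHYLLO (AT1G68890), with 9861 bp, and PS1 (AT1G34355), with 5629 bp, also held 8 each.

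Genes of the abscisic acid and dehydration response had drought-specific peaks at their ends more often than salt-specific ones, but so did housekeeping genes. Of 33 genes listed as abscisic acid receptors, phosphatases and kinases, 9 had a drought-specific peak (27.3%, against 12.3% of all genes). A salt-specific peak was at 3 of them (9.09%, against 15.0%). Of 36 drought and salt transcription factor genes the numbers were 9 (25%) and 2 (5.56%), and of 27 output genes 8 (29.6%) and 4 (14.8%). Of 14 housekeeping genes, 6 had a drought-specific peak (42.9%) and 0 a salt-specific one. The drought counts of these 4 lists exceeded their salt counts, and their drought shares that of all genes, in all 9 settings tried. The lean towards drought was thus not particular to the stress genes. Some of these peaks lay over tRNA genes next to the member. Without specific peaks over tRNA genes, the drought counts were 7 for abscisic acid signalling, 8 for transcription factors, 8 for output genes and 5 for housekeeping genes, against 11.5% of all genes.

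**Figure D4:**
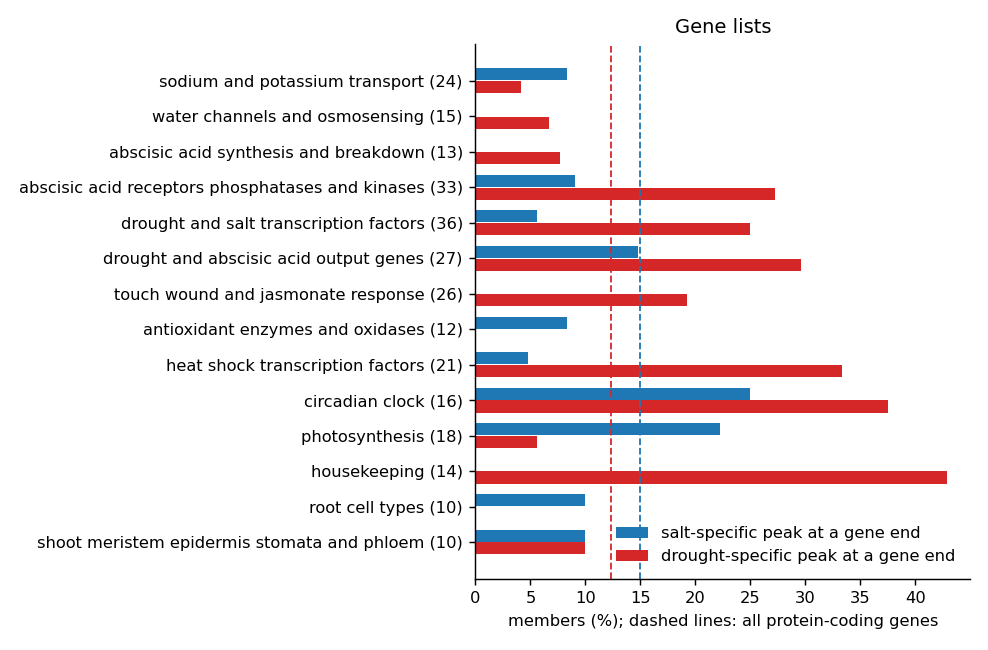
Percent of the members of each gene list (number of members in brackets) with a salt-specific or a drought-specific DNase-seq peak from 1000 bp outside to 200 bp inside a gene end. Dashed lines mark the shares of all protein-coding genes, 15.0% for salt and 12.3% for drought, and 6 of the 14 housekeeping genes carry a drought-specific peak.

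Within the abscisic acid signalling list, drought-specific peaks lay at 3 of 14 receptor genes and at 6 of 19 phosphatase and kinase genes. The 4 highest-ranked lay at phosphatase and kinase genes. The SNRK2.9 (AT2G23030) peak, by a kinase gene of the SnRK2 family, lay 269 bp outside the gene at 9803110 to 9803313 of chromosome 2 (fold enrichment 8.05). It outranked 81.7% of the drought list and covered the methionine tRNA gene AT2G23020, one of the 199 counted above. HAB2 (AT1G17550), encoding a PP2C phosphatase that holds the kinases off, had one on chromosome 1 at 6033698 to 6033858 (fold enrichment 6.30), 503 bp outside. SNRK2.1 (AT5G08590) had one 55 bp inside the gene on chromosome 5 at 2783169 to 2783306 (5.70), and a salt-specific peak (2.18) 329 bp outside the opposite end. HAI1 (AT5G59220), a PP2C gene induced by abscisic acid, had a drought peak 809 bp outside on chromosome 5 at 23893531 to 23893661 (3.97) and no salt peak at either end. The salt-specific peaks of this list lay at SNRK2.5 (AT5G63650), SNRK2.4 (AT1G10940) and SNRK2.1, and outranked 21.9%, 18.0% and 10.1% of the salt list. The kinase genes named here belong to the SnRK2 family, and which of them abscisic acid activates was not examined. Peaks at these kinase genes therefore cannot be counted as sites of the receptor and phosphatase pathway. Of the 13 genes of abscisic acid synthesis and breakdown, 1 had a drought-specific peak and 0 a salt-specific one. This was ABA1 (AT5G67030), the zeaxanthin epoxidase gene, on chromosome 5 at 26752942 to 26753068 (2.66).

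Among the transcription factor genes, the highest-ranked drought-specific peaks lay at ATAF1, ABF3, DREB2B and MYC2. ATAF1 (AT1G01720), a NAC factor of the drought response, had its peak 830 bp outside on chromosome 1 at 270566 to 270757 (fold enrichment 4.52, outranking 74.5% of the list). ABF3 (AT4G34000), a bZIP factor that binds abscisic acid response elements, had one 114 bp outside on chromosome 4 at 16295107 to 16295350 (5.25), at a site the control DNase-seq list lacked. DREB2B (AT3G11020), a factor of the hormone-independent branch, had one on chromosome 3 at 3454344 to 3454518 (outranking 59.5%), and MYC2 (AT1G32640), the main jasmonate factor, one on chromosome 1 at 11797145 to 11797295 (3.71). The MYC2 peak lay 893 bp outside the gene, over the methionine tRNA gene AT1G32620. The salt-specific sites of this list were those of HB-7 (AT2G46680), a homeobox gene induced by water deficit, on chromosome 2 at 19164806 to 19165090 (2.97), and of ABF4 (AT3G19290), 819 bp outside (1.87). ABF4 also had a drought-specific peak, 141 bp inside the gene, on chromosome 3 at 6687074 to 6687266 (4.83).

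Among the output genes, ERD15 was followed by ERD10, P5CS2 and COR47. ERD10 (AT1G20450), a dehydrin gene, had its drought-specific peak 536 bp outside on chromosome 1 at 7090059 to 7090223 (fold enrichment 6.40, outranking 77.6% of the list), and COR47 (AT1G20440), another dehydrin gene, 169 bp inside on chromosome 1 at 7086636 to 7086799 (3.74). P5CS2 (AT3G55610), which encodes an enzyme of proline synthesis, had a drought-specific peak on chromosome 3 at 20630061 to 20630196 (5.13) and a salt-specific one at 20623409 to 20623518 (2.28), past opposite ends of the gene. The other salt-specific peaks lay at LEA14 (AT1G01470) and LEA4-5 (AT5G06760), late embryogenesis abundant protein genes, and GOLS1 (AT2G47180), a galactinol synthase gene. These salt-specific peaks outranked 27.7%, 15.9% and 23.9% of the salt list. LEA14 and GOLS1 also had drought-specific peaks at an end (3.85 and 2.81).

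Sodium and water transport genes stood out for neither stress. Of 24 sodium and potassium transport genes, 2 had a salt-specific peak and 1 a drought-specific peak, 8.33% and 4.17%, both below the shares of all genes. The salt-specific ones were AKT1 (AT2G26650), the main potassium uptake channel of roots, on chromosome 2 at 11330879 to 11331490 (fold enrichment 2.56), and CLCA (AT5G40890), a vacuolar nitrate/proton exchanger gene, on chromosome 5 at 16380947 to 16381067 (2.38). The drought-specific one was NHX3 (AT5G55470), a vacuolar sodium/proton exchanger gene, on chromosome 5 at 22472945 to 22473140 (5.13). Of 15 aquaporin and osmosensor genes, 0 had a salt-specific peak, and PIP1;1 (AT3G61430) had a drought-specific peak that outranked 0.06% of its list. Of 12 antioxidant enzyme and oxidase genes, CSD1 (AT1G08830), a copper/zinc superoxide dismutase gene, had a salt-specific peak (2.24), and 0 had a drought-specific peak.

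Of 10 landmark genes, 6 had a stress-specific summit inside the gene or at an end and 4 had none. The same share was not counted over all genes, so these numbers describe the 10 genes only. SOS1 (AT2G01980), which encodes the exchanger that pumps sodium out of the cell, had a salt peak on chromosome 2 at 457061 to 457303 and a drought peak at 457053 to 457254, outranking 52.9% and 67.4% of their lists. RD29B (AT5G52300), a late abscisic acid target, had the same 2 end sites in both lists, and inside the gene 2 salt summits and 4 drought summits, 1 of them drought-specific. TCH4 (AT5G57560), a touch-induced cell wall enzyme gene, had 1 end site, in both lists. P5CS1 (AT2G39800), the stress-induced proline synthesis gene, had 2 end sites in common and a further drought peak, 97 bp inside the gene, that also shared bases with a salt peak, while 1 of 3 salt summits inside the gene was salt-specific. HKT1 (AT4G10310), a sodium transporter gene, had 2 salt-specific summits inside the gene and none in the drought list, and no peak at an end in either. NCED3 (AT3G14440), which encodes the rate-limiting enzyme of abscisic acid synthesis under drought, RD29A (AT5G52310), DREB2A (AT5G05410) and HSFA2 (AT2G26150) had no peak at an end in either list. Inside RD29A lay 4 salt summits, 1 of them salt-specific, and 3 drought summits, and inside DREB2A 2 salt summits, 1 of them salt-specific, and 1 drought summit. NCED3 held 1 salt and 2 drought summits and HSFA2 held 2 of each, with no specific one.

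Touch, heat shock and clock lists were set against the same shares of all genes, 12.3% for drought and 15.0% for salt. Of 26 touch, wound and jasmonate genes, 5 had a drought-specific peak (19.2%) and 0 a salt-specific one. These included TCH3 (AT2G41100), a touch-induced calmodulin-like gene, on chromosome 2 at 17140007 to 17140257 (fold enrichment 6.18), and JAZ1 (AT1G19180), a jasmonate repressor, on chromosome 1 at 6620940 to 6621123 (4.14), which the control DNase-seq list lacked. JAZ5 (AT1G17380) and JAZ12 (AT5G20900) followed, at 3.94 and 3.62. Of 21 heat shock transcription factor genes, 7 had a drought-specific peak (33.3%) and 1, HSFA9 (AT5G54070), a salt-specific one (4.76%). HSFA9 was also among the 7 with a drought-specific peak (3.22). The drought peaks of HSFA7B (AT3G63350), HSFA4C (AT5G45710), HSFB2A (AT5G62020) and HSFB2B (AT4G11660) outranked 69.0%, 67.4%, 55.4% and 38.2% of the list. The HSFA4C peak covered the glutamate tRNA gene AT5G45715. Those of HSFB2A, on chromosome 5 at 24917467 to 24917642, and HSFB2B, on chromosome 4 at 7042469 to 7042589, lay inside the gene within 200 bp of an end. Both sites were in the heat list and not in the control list. The HSFA7B site was in both of these lists, and the HSFA4C site was in the control list and not in the heat list.

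Of 16 clock genes, 6 had a drought-specific peak (37.5%) and 4 a salt-specific one (25%). The drought share was above that of all genes in 9 of 9 settings and the salt share in 7. With lists of equal length the salt count was 1 of 16 (6.25%), below the 7.99% of all genes, and in the wide window 5 (31.3%), below 38.4%. TOC1 (AT5G61380), an evening gene of the clock, had a drought-specific peak 196 bp inside the gene on chromosome 5 at 24675070 to 24675254 (fold enrichment 6.98) and a salt-specific one (1.99) past the opposite end. PRR7 (AT5G02810), GI (AT1G22770) and PRR5 (AT5G24470) had drought-specific peaks of 6.13, 5.38 and 3.72, of which the PRR7 peak covered the serine tRNA gene AT5G02815. PRR3 (AT5G60100), CCA1 (AT2G46830) and RVE8 (AT3G09600) had salt-specific ones of 2.41, 2.25 and 2.01. CCA1 also had a drought-specific one (2.68). The sources used here do not give the time of day of sampling. Of 18 photosynthesis genes, 4 had a salt-specific peak (22.2%) and 1 a drought-specific one (5.56%). The counts were 0 and 0 in the narrow window and 5 and 4 with summits matched within 150 bp, and the salt share was above that of all genes in 7 of 9 settings. The 4 genes were the light-harvesting genes LHCB2.2 (AT2G05070), LHCB1.2 (AT1G29910), LHCA3 (AT1G61520) and LHCB1.3 (AT1G29930), with fold enrichments of 3.33, 2.28, 2.29 and 2.11, and LHCA3 was also the drought-specific one (5.83). Some light-harvesting genes are close copies, so reads at their ends may be shared.

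At housekeeping genes the drought-specific peaks lay close to the gene. The UBQ10 (AT4G05320) peak, at a polyubiquitin gene, had its summit 61 bp outside on chromosome 4 at 2717751 to 2718034 (fold enrichment 4.96). GAPC2 (AT1G13440), a glyceraldehyde-3-phosphate dehydrogenase gene, had one 72 bp inside on chromosome 1 at 4610715 to 4610864 (5.33), ACT8 (AT1G49240), an actin gene, one 182 bp inside (4.46), and GAPC1 (AT3G04120) one 165 bp outside (3.06). All 4 sites were in the control DNase-seq list. The weakest of the 6 housekeeping peaks (2.75) was not in that list and lay over an alanine tRNA gene. Of 10 root genes 1 had a salt-specific peak, PLT1 (AT3G20840), a root stem cell factor, and 0 had a drought-specific one. Of 10 shoot meristem, epidermis, stomata and phloem genes, TMM (AT1G80080), a stomatal patterning receptor, had a peak specific to each stress. The shares of all genes were 15.0% for salt and 12.3% for drought. With 10 members each, the lists are too short to differ from these shares or to show a difference in cell composition.

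The specific sites were then looked for in the FAIRE-seq lists of the same stresses, which come from other libraries. Of salt-specific DNase-seq peaks, 84.5% (83.9 to 85.0) shared a base with the salt FAIRE-seq list and 81.3% (80.7 to 81.9) with the drought FAIRE-seq list. Of drought-specific peaks, 61.3% (59.7 to 62.9) were in the salt and 59.8% (58.2 to 61.4) in the drought FAIRE-seq list. Both sets were thus slightly more frequent in the salt FAIRE-seq list. Of the salt-specific peaks found in only 1 of the FAIRE-seq lists, 68.2% (65.8 to 70.6 of 1480) were in the salt list, and of the drought-specific ones 57.3% (52.1 to 62.2 of 365) were also in the salt list. Among shared DNase-seq peaks the salt FAIRE-seq list likewise held more of them, 73.0% for salt peaks and 73.7% for drought peaks. Whether these shares differ beyond the spread between libraries was not tested. The FAIRE-seq lists covered 26.2 Mb for salt and 26.4 Mb for drought. By place, the drought FAIRE-seq list held 55.9% of drought-specific and 86.2% of salt-specific peaks with summits inside genes. In flanks it held 73.1% and 71.6%, and elsewhere 45.9% and 68.9%. The part of peak width in these shares was not tested.

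Among the other DNase-seq lists, the heat list held the specific sets most unequally. Drought-specific sites were in the heat list in 66.8% of cases (65.2 to 68.3) and salt-specific sites in 33.2% (32.5 to 34.0), while shared sites were in 76.4% (drought) and 78.0% (salt). The cold list held 58.8% of drought-specific and 57.5% of salt-specific sites. The control list, which did not enter the comparison, held 90.6% (90.2 to 91.1) of salt-specific and 77.4% (76.0 to 78.8) of drought-specific sites, against 99.6% of shared sites. Most specific sites of either stress were therefore listed as open in unstressed seedlings too.

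**Figure D5:**
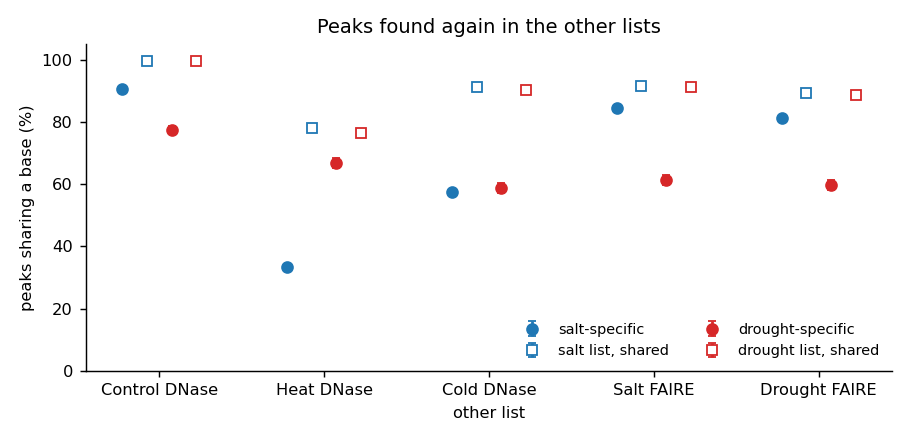
Percent of salt-specific, drought-specific and shared DNase-seq peaks that share at least 1 base with each of 5 other lists, with 95% Wilson intervals (often smaller than the symbols). The widest gap between the specific sets is at the heat DNase list, with 66.8% of drought-specific and 33.2% of salt-specific peaks.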

How the data were processed

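DNase-seq libraries of salt-treated and air-dried seedlings were analysed through 1 deposited MACS2 peak list per group, which the labels link to all 3 libraries. The submitters' processing notes name Bowtie2, SAMtools and MACS2 and the build TAIR10, but no version or setting. The sources used here do not give how replicates were pooled, the background library, how duplicates were handled, or any cut-site shift, which moves DNase-seq summits. Each deposited list gives, as the authors' peak caller wrote them, a fold enrichment (a ratio), −log10 of the p-value and q-value, and, of another kind, the summit's distance from the peak start. Every −log10 q was above 2.

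Peaks on chromosomes 1 to 5 were compared by shared bases, at least 1, and ranked within a list by −log10 p. Genes were placed by RefSeq's table for TAIR10.1, where strand is absent. The summits shared by both lists were densest 200 to 400 bp inside gene ends on each chromosome, and few lay just outside the ends. Why so few lay there was not tested. No genome sequence was used here. Summits were placed within genes, within 1000 bp of one, or elsewhere. Python 3.11.15, numpy 2.4.6, pandas 2.3.3, scipy 1.17.1 and matplotlib 3.10.9 were used, and the steps were tested on simulated intervals.

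The comparison, the 14 gene lists (275 genes, all matched) and the alternatives were chosen with earlier results of these data known. Genes named were, per stress, the 10 highest-ranked specific peaks at protein-coding genes, up to 4 members of each list with the highest-ranked specific peak at an end, and 10 landmark genes. Genes with the most specific summits were named after their values were seen. The alternatives were a −log10 q of at least 5, lists of equal length, 50% coverage, summits within 150 bp, leaving out peaks over tRNA genes, and a gene-end window either narrower (500 bp outside, 100 bp inside) or wider (2000 bp outside, 500 bp inside).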

Additional observations from a re-analysis of the deposited data

How the results depend on the processing

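Drought-specific summits lay in gene flanks more often than salt-specific ones in every setting run: the salt-specific share stayed between 3.28% and 3.42%, and the drought-specific share was 31.4%, 28.7% without peaks over tRNA genes, 24.6% with lists of equal length and 14.5% with summits matched within 150 bp. With lists of equal length, 9103 salt-specific and 5894 drought-specific peaks and 2192 genes with a salt-specific peak were counted, since the salt list then loses its weakest peaks. With summits within 150 bp, 8924 peaks and 5205 genes were drought-specific. The narrower gene-end window gave 1355 genes for salt and 2007 for drought, and the wider one 10532 and 5242, so which stress has more genes depends on the window. Salt-specific peaks were in the salt FAIRE-seq list in 85.8% and 85.6% (−log10 q of at least 5 in both lists, and for specific peaks only), 87.9% (equal length), 87.1% (50% covered) and 85.7% (summits) of cases. Drought-specific peaks were in the drought FAIRE-seq list in 61.7% (equal length) and 78.7% (summits). The tRNA genes covered by drought alone numbered 186 to 226. The pseudogenes covered by salt alone numbered 519 to 723 but 54 with 50% covered. Leaving out peaks over tRNA genes and the settings for tRNA genes, pseudogenes, FAIRE-seq and gene lists were chosen after seeing the data. Of 224 gene list counts, 169 stayed within 1.5 times the reported count. No replicate could be left out. No paired analysis was possible because each group has 1 pooled list and no values per library. Depth per library is unknown, and peaks near the threshold are the least certain.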

Other observations

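Stress-specific peaks were unevenly crowded along the chromosomes. Non-empty bins of 100 kb held a median of 3 drought-specific and 14 salt-specific peaks. On chromosome 2 from 3200001 to 3500000, near the centromere, where this accession carries a nuclear copy of mitochondrial DNA, 68 of 247 drought peaks were drought-specific, and 6 peaks there were salt-specific. The fold enrichments of these 68 were low, from 1.36 to 1.88 with a median of 1.55, against 3.46 for all drought-specific peaks. The bin with most salt-specific peaks, 56, lay on chromosome 5 at 11200001 to 11300000, also with low enrichments (median 2.14). Sequence repeated elsewhere in the genome or in organelles can draw reads from its other copies, and its part in these counts was not tested.

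Among other short RNA genes, 8 of 82 small nuclear RNA genes, which serve splicing, were covered by drought alone (9.76%, 5.03 to 18.1) and 1 by salt alone (1.22%), where over all genes the shares were 2.60% and 9.01%. Of 287 small nucleolar RNA genes, 9 were covered by drought alone (3.14%, near the share of all genes) and 0 by salt alone, which allows up to 1.32% by the Wilson interval. Of 326 microRNA genes, 1 was covered by drought alone (0.31%) and 8 by salt alone (2.45%), both below the shares of all genes. Neither list covered 285 of the microRNA and 261 of the small nucleolar RNA genes, and gene length was not matched in these comparisons. Most drought-specific summits within 1 gene, 4 each, lay in AT2G07718 and AT2G08986 on chromosome 2, the first within the stretch above, and genes with 3 included LOS2 (AT2G36530), a cytosolic enolase gene, and UBC10 (AT5G53300), a ubiquitin-conjugating enzyme gene.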
